A study of Homo sapiens with 29 samples.

Results

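Cells of the established human embryonic stem line HuES6 were taken toward heart muscle with or without bone morphogenetic protein 4 (BMP4) at the start, and the transcripts present from day 4 to day 8 were compared. The full induction, called FBW, supplied 3 agents on day 0, which were FGF2 (10 ng/ml), BMP4 (1 ng/ml) and a compound that activates WNT signalling (1 µM). The FW arm had FGF2 and the WNT activator and lacked BMP4, per its own label. Both arms share the cell line, a Matrigel surface, a medium free of serum and albumin, insulin on day 0 alone, and the WNT secretion inhibitor IWP-2 at 2 µM on days 2 and 3. The labels repeat 1 protocol for all samples, so the arm was read from each title. The comparison uses 4 FBW and 4 FW arrays, from days 4, 5, 6 and 8, out of 29 arrays in the series. A gene entered where its probe had a detection p under 0.01 on 3 or more of these 8 arrays, which held for 11426 of 20046 genes with a probe. Cells without the WNT activator (FB) and without FGF2 (BW) were the other arms.

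Each arm and day had 1 array, so the days of an arm stood in for repeats. The p-values below set a difference against the scatter over days, pooled over all 4 arms of the fit. They hold no variation between separate differentiations, and related neighbouring days make them too small. The labels describe the FBW arrays of day 6 and of day 3, the latter used only in the late against early test, as shared with another series. The 8 arrays detected between 16788 and 18796 of 47323 probes, and their number limits the precision. Signals are normalised log2 intensities, differences are FW minus FBW on that scale, averaged over the 4 days, and ± is the standard error of the fit. Signals of about 4.2 to 5 are near background.

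BMP4 is a secreted ligand whose receptors phosphorylate SMAD proteins, which then enter the nucleus and switch on genes such as the ID and MSX families. In the early embryo BMP acts with WNT, Nodal and FGF signals to form mesoderm from the primitive streak, and it later supports the heart-forming part of that mesoderm. In ectoderm, BMP levels separate neural plate from surface ectoderm.

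At an adjusted p under 0.05, 3426 of 11426 tested genes were higher in FW (30.0%) and 3312 were lower (29.0%). Without day 6 of all arms, 5224 genes passed in place of 6738. The median difference over all tested genes was 0.01. Beyond a 4-fold difference stood 180 higher genes (1.58%) and 336 lower genes (2.94%). The 4 FW values lay above the 4 FBW values in 2391 genes (20.9%) and below them in 2369 (20.7%). With shares this large, a gene list is described by how its count compares with 30.0% and 29.0%. A gene detected in 1 arm alone had to differ to enter. Of the 180 genes, 32 were not detected in FBW on any of the 4 days, and of the 336 genes, 94 were not detected in FW.

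The 4-fold genes were set against the single day 0 array. Within these sets, most of the higher genes were detected in the starting cells, and most of the lower genes had risen in FBW. Of the 180 genes at least 4-fold higher, 163 were detected on day 0. In FW, 93 of the 180 stayed within 2-fold of day 0 and 31 were at least 4-fold above it. In FBW, 99 of the 180 were at least 4-fold below day 0. Of the 336 genes at least 4-fold lower, 211 were also detected on day 0. FBW stood at least 4-fold above day 0 for 248 of the 336, and FW was within 2-fold of day 0 for 226. The shares over all tested genes, for detection on day 0 and for change from it, were not counted. These counts are thus not read as particular to the 4-fold genes. Day 0 is 1 array, so these counts have no test.

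SOX2, a transcription factor of pluripotent and neural cells, had the largest positive difference. Its signal was 12.02 on day 0. In FBW it was 5.10, 4.35, 4.37 and 4.23 on days 4, 5, 6 and 8, and in FW it was 11.67, 11.51, 10.63 and 9.24. The FW values fell from day to day and stayed above every FBW value, while FBW was detected on day 4 alone. The difference was 6.25 ± 0.33 (adjusted p = 4.94e-08). As FBW was not above background on the other 3 days, this measured difference may be smaller than the true one. The same holds below wherever an arm is said to be detected on some of the 4 days.

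MYH6, which encodes the atrial myosin heavy chain, had the largest negative difference. FBW gave 9.15, 13.88, 14.07 and 14.01, and FW gave 5.77, 5.94, 5.83 and 5.29. The arms did not overlap, and day 4 stood apart because the FBW signal had not yet reached its later level. The difference was -7.07 ± 1.06 (adjusted p = 0.000142). The sequence of MYH6 is close to that of MYH7, so the probe may report both.

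The promoters of 4 genes, picked by name from the 12 largest differences each way, are shown as examples, and no result rests on them. Each is the 250 bases before the first listed RefSeq start in build GRCh38.p14, written 5′ to 3′ on the gene's strand. The motifs searched on both strands were TATAAA (the TATA box), GCCNNNGGC (bound by AP-2 factors such as TFAP2A) and GGCGCC (bound by BMP-activated SMAD proteins). Capitals mark a match, and each window holds 1.
SOX2 (chr3:181711675-181711924, plus strand, GCCNNNGGC): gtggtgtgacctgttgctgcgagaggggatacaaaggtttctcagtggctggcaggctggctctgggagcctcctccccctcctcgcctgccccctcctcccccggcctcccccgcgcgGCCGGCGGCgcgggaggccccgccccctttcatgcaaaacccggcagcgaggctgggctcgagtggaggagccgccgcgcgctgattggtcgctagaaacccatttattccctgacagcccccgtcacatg
TFAP2A (chr6:10419660-10419909, minus strand, TATAAA): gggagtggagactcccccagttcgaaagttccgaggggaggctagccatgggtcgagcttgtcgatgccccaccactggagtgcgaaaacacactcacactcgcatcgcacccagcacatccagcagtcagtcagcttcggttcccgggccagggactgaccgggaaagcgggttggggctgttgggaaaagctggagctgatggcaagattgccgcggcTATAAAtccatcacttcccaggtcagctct
MYH6 (chr14:23408274-23408523, minus strand, TATAAA): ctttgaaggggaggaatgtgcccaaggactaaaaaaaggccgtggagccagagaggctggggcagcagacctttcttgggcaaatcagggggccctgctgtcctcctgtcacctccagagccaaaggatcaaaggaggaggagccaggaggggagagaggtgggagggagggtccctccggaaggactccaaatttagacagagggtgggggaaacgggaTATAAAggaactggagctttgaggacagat
BMPER (chr7:33904665-33904914, plus strand, GGCGCC): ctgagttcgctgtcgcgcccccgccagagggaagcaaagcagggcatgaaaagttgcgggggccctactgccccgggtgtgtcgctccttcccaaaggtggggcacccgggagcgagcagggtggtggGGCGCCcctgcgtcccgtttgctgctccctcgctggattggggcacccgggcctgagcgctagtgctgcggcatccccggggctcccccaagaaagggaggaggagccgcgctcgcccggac
The TATAAA match began 30 bases before the start in both TFAP2A and MYH6. Over all 35116 listed starts, 10.7% held TATAAA, 19.8% held GCCNNNGGC and 16.4% held GGCGCC in the same window. Among the 12 genes with the largest positive differences, 8 had an entry, and 2 of them held TATAAA, 2 held GCCNNNGGC and 0 held GGCGCC. Among the 12 with the largest negative differences, 9 had an entry, and 3 of them held TATAAA, 0 held GCCNNNGGC and 2 held GGCGCC. A match is a description of letters, not a binding site.

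**Figure D1:**
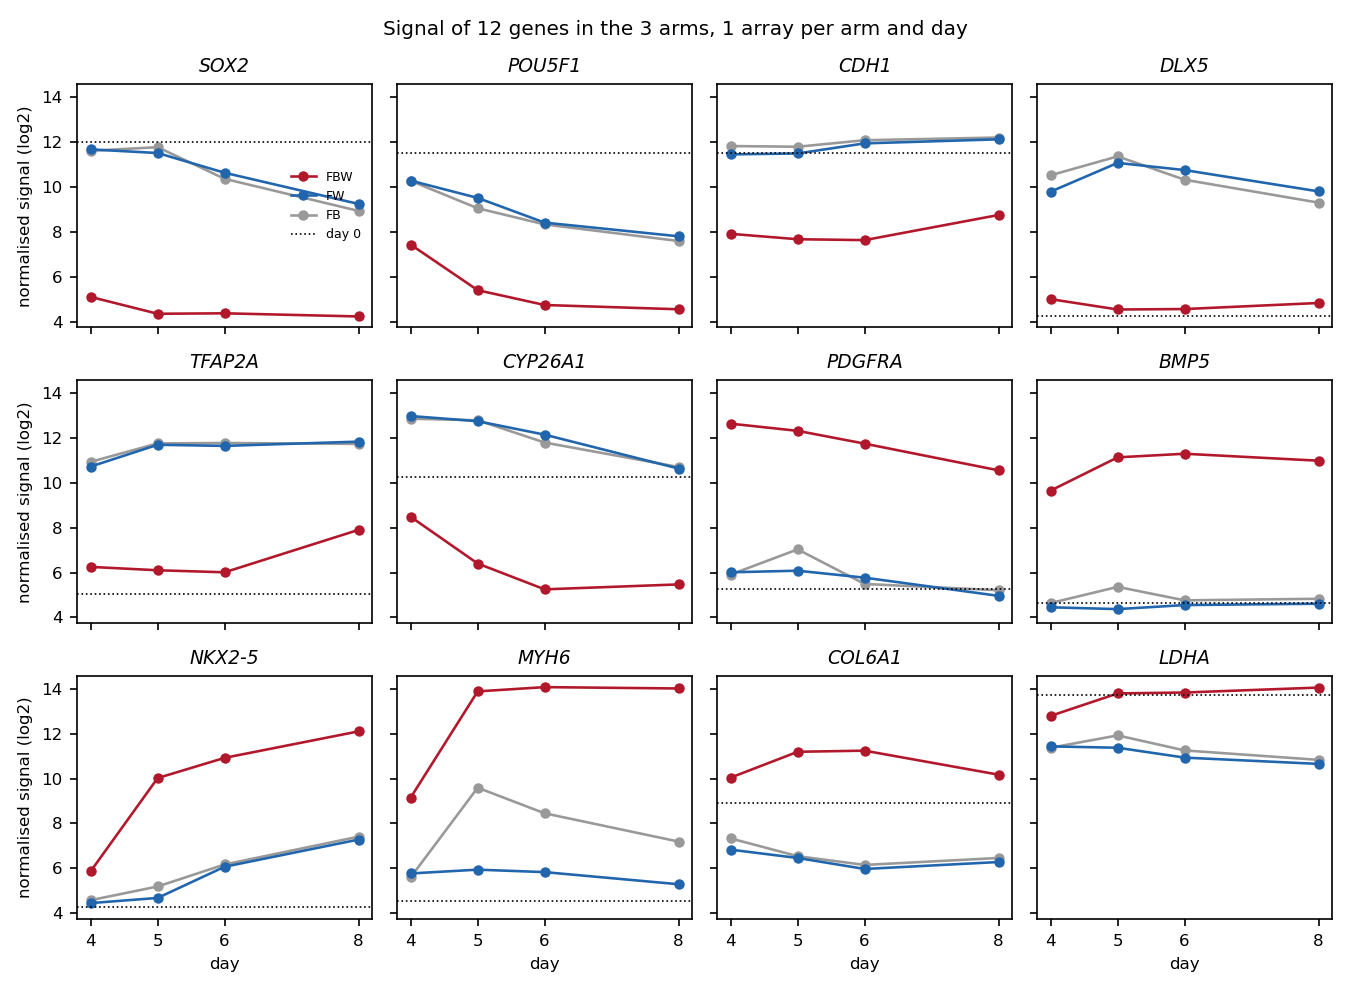
Normalised log2 signal (vertical axis) of 12 genes on days 4, 5, 6 and 8 (horizontal axis) in FBW, FW and FB, 1 array per point, with the day 0 level as a dotted line. FW lies above FBW for SOX2 to CYP26A1 and below it for PDGFRA to LDHA on each of the 4 days, and FB runs near FW except for MYH6 from day 5 on.

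Regulators and receptors of cardiac mesoderm were lower in FW. Of 22 tested genes of this list, from 23 with a probe, 19 were lower, 0 were higher and 3 did not pass, with 16 beyond 4-fold and a median of -2.49. The receptor PDGFRA, a marker of cardiac mesoderm, was 12.63, 12.31, 11.74 and 10.55 in FBW and 6.01, 6.08, 5.77 and 4.96 in FW. Both arms ended lower on day 8 than on day 4 and never met. The difference was -6.62 on day 4 and -5.59 on day 8. It averaged -6.10 ± 0.25 (adjusted p = 1.25e-08), with FW detected on 3 days. APLNR, the apelin receptor carried by migrating mesoderm, was 11.50, 11.52, 11.39 and 10.28 in FBW and was not detected in FW on any day. It was at least 67.9-fold lower in FW (adjusted p = 3.02e-08). For a gene undetected in 1 arm, the bound sets the mean of the detected arm against the lowest signal among detected probes. In bulk RNA, fewer cells of a type and less RNA per cell cannot be told apart.

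TBX2, a T-box factor of the atrioventricular canal, reached 9.29, 10.01, 10.82 and 10.51 in FBW and stayed undetected in FW. It was at least 33.5-fold lower (adjusted p = 1.97e-08). GATA4 and GATA6, zinc-finger factors of heart and endoderm, were likewise undetected in FW on all 4 days. Their bounds were at least 7.52-fold (adjusted p = 2.67e-07) and at least 4.68-fold (adjusted p = 1.17e-06). MESP1, which marks the first cardiac mesoderm, was at least 4.99-fold lower, and the VEGF receptor KDR at least 2.64-fold lower.

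HAND1, a bHLH factor of heart and extraembryonic mesoderm, did not follow the other regulators. FBW was steady at 12.73, 12.16, 13.08 and 13.12, and FW climbed through 8.59, 11.56, 12.68 and 13.39. The arms overlapped, since FW was the lower arm on day 4 and close to FBW by day 6. The mean difference was -1.22 ± 0.67 (adjusted p = 0.138). ISL1, a LIM factor of second heart field and amnion, chosen after its values were seen, went from 8.01 to 11.82 in FW and from 11.41 to 9.67 in FBW. Its mean difference was -0.39 ± 0.63 (adjusted p = 0.616).

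Cardiac transcription factors proper were lower in 13 of 17 tested, higher in 0, with a median of -1.80. NKX2-5, an early cardiac homeobox factor, was 5.87, 10.02, 10.92 and 12.10 in FBW and 4.45, 4.68, 6.07 and 7.28 in FW. The signal increased in both arms, with FW lower on each day. The difference was -4.10 ± 0.61 (adjusted p = 0.000132), with FW detected on 2 days. MEF2C, which activates muscle genes, was undetected in FW and at least 8.00-fold lower. SMYD1, a muscle methyltransferase needed for heart formation in the mouse, differed by -5.72 ± 0.64 (adjusted p = 1.63e-05), with FW detected on 1 day, and HOPX was at least 4.38-fold lower.

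Of the 29 sarcomere genes with a probe 25 were tested, of which 22 were lower, 1 was higher and 2 did not pass. The list median was -0.38, -1.86, -3.05 and -4.38 on days 4, 5, 6 and 8. MYL7, the atrial regulatory light chain, rose from 10.35 to 13.77 in FBW and lay between 5.47 and 6.55 in FW. Its difference was -6.26 ± 0.70 (adjusted p = 1.56e-05). MYL4, the atrial essential light chain, gave -7.00 ± 0.61 (adjusted p = 2.57e-06), and a second probe of it gave -2.66. TNNC1, cardiac troponin C, was 6.87, 10.08, 11.79 and 12.58 in FBW and 6.26, 6.54, 6.11 and 5.50 in FW. The TNNC1 arms were within 1 unit of each other on day 4 and apart by day 8. The cardiomyocyte marker ACTN2, sarcomeric actinin, was detected in FBW on 3 days and in FW on 0, and was at least 4.17-fold lower (adjusted p = 0.00208).

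Calcium handling and channel genes were lower in 11 of 16 tested (21 with a probe) and higher in 2, with a median of -1.55. HRC, a calcium-binding protein of the sarcoplasmic reticulum, differed by -4.34 ± 0.56 (adjusted p = 4.93e-05). PLN, phospholamban, the brake on the calcium pump, was 4.91, 7.57, 8.20 and 8.58 in FBW and 4.73, 5.14, 4.73 and 4.55 in FW. The 2 arms were level on day 4 and separate from day 5. The ryanodine receptor RYR2 differed by -1.51 ± 0.30 (adjusted p = 0.00109). FW was detected on 1 day for PLN and for RYR2. The natriuretic peptide gene NPPB, a gene of stretched heart muscle, did not pass, with -0.08 ± 0.62 (adjusted p = 0.922), and its arms overlapped.

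Genes of heart energy supply were lower in 9 of 12 tested (18 with a probe) and higher in 0. CKM, muscle creatine kinase, climbed in FBW through 5.77, 7.50, 10.45 and 12.29 and was undetected in FW, so that it was at least 15.1-fold lower (adjusted p = 0.0014). HSPB7, a heart small heat shock protein, was at least 11.0-fold lower. Myoglobin, MB, differed by -3.41 ± 0.72 (adjusted p = 0.00153). PPARGC1A, a coactivator of mitochondrial genes, differed by -3.43 ± 0.65 (adjusted p = 0.000796). FW was detected on 1 day for each of these 2 genes.

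**Figure D2:**
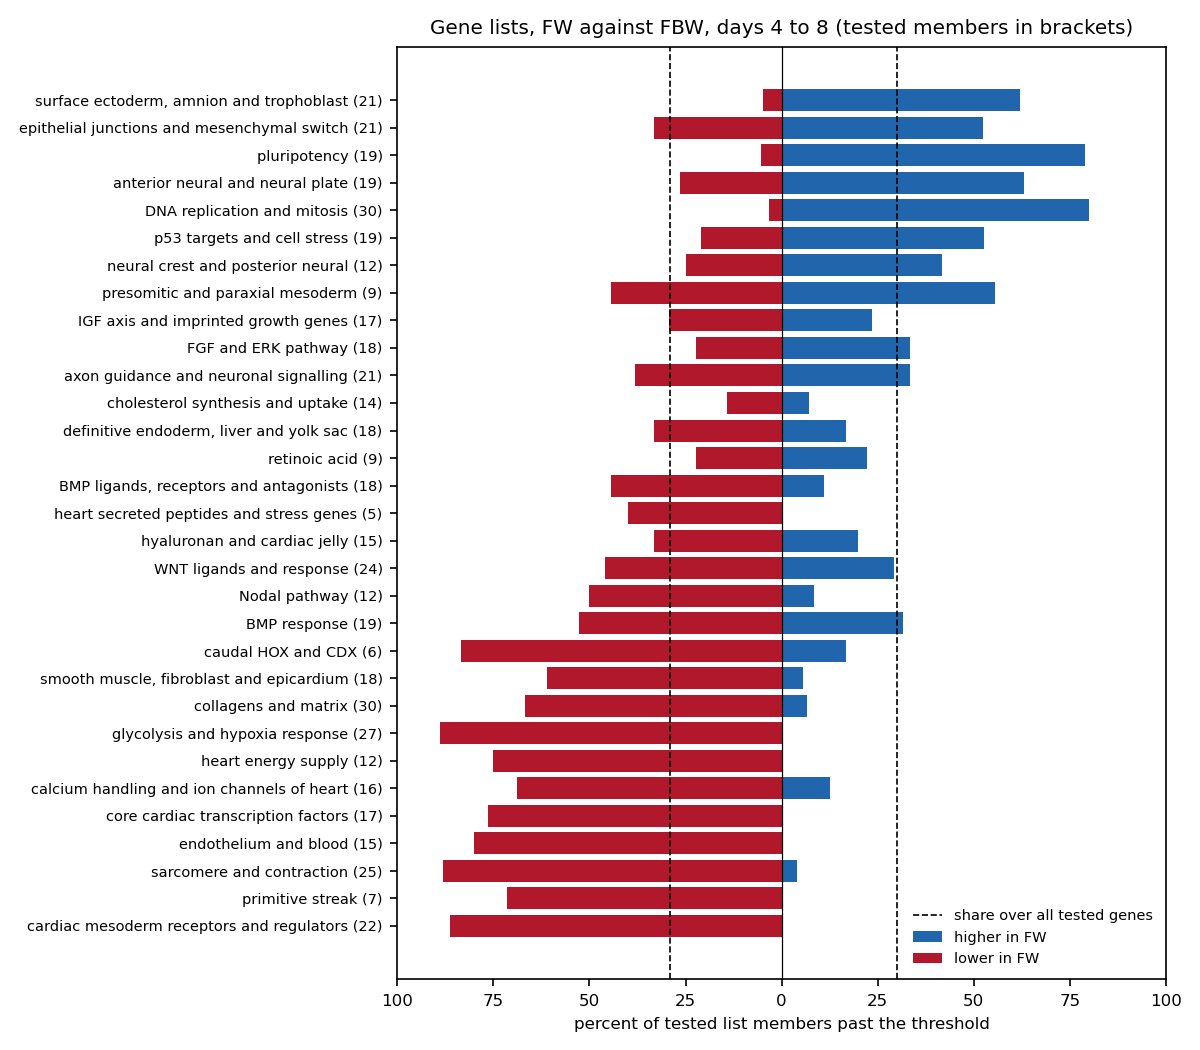
Percent of tested members of each gene list (bars; tested members in brackets) past an adjusted p of 0.05 in FW against FBW, higher to the right in blue and lower to the left in red. Dashed lines mark the shares over all tested genes, 30.0% and 29.0%. Heart, endothelium and glycolysis lists extend to the left, and pluripotency, surface ectoderm and DNA replication lists to the right.

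Transcripts of other mesoderm derivatives were also lower in FW. Of 15 tested endothelium and blood genes, 12 were lower and 0 were higher, with a median of -1.88. CDH5, the endothelial cadherin, was 4.61, 7.36, 8.42 and 8.65 in FBW and undetected in FW, at least 4.50-fold lower (adjusted p = 0.0013). PECAM1, an endothelial adhesion molecule, was detected in FBW on 2 days and in FW on 0 and was not tested. The angiopoietin receptor TEK did not pass, at 0.56 ± 0.69 (adjusted p = 0.507). The summed linear signal of all 25 endothelium and blood members with a probe was 983 to 3791 in FBW and 840 to 1290 in FW, and 5 of them were detected in neither arm.

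Smooth muscle, fibroblast and epicardium genes were lower in 11 of 18 tested and higher in 1. Their summed linear signal over 20 members was 22869 to 42622 in FBW and 6364 to 16169 in FW. ACTA2, smooth muscle actin, increased in both arms, from 7.89 to 13.36 in FBW and from 6.50 to 11.06 in FW. Its difference was -2.51 ± 0.30 (adjusted p = 2.45e-05), and it did not pass without the day block (adjusted p = 0.179). TAGLN, a calponin-family protein of smooth muscle, was the higher member, at 12.74, 11.41, 11.08 and 11.54 in FW and 9.00, 10.68, 10.96 and 11.35 in FBW. Day 4 set the TAGLN difference of 1.20 ± 0.47 (adjusted p = 0.0444), which was 0.35 without that day and no longer passed (adjusted p = 0.292). Without day 5 or day 6 it was 1.36 (adjusted p = 0.097) or 1.56 (adjusted p = 0.0505). The TAGLN call was also lost with only the 2 arms in the fit (adjusted p = 0.173) and with no detection filter (adjusted p = 0.0548). With array weights the difference was 0.78 (adjusted p = 0.13). What part the endothelial and stromal markers have in the heart lists was not tested.

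Collagen and matrix genes were lower in 20 of 30 tested (36 with a probe) and higher in 2, with a median of -1.25. COL6A1 and COL6A2, chains of collagen VI, differed by -4.28 ± 0.33 (adjusted p = 1.05e-06) and -4.41 ± 0.36 (adjusted p = 1.68e-06), the latter with FW detected on 3 days. In FW both were below the day 0 level on every day. COL3A1, a fibrillar collagen, was 8.33, 10.84, 13.00 and 11.27 in FBW and 4.46, 4.77, 6.08 and 10.38 in FW. FW, detected on 2 days, was the lower arm on each day, but its day 8 value lay above FBW of day 4. HAS2, which makes the hyaluronan of cardiac jelly, stayed flat in FW between 5.46 and 6.04 and lay between 9.36 and 10.67 in FBW, a difference of -4.34 ± 0.28 (adjusted p = 2.3e-07). HAS3, a related synthase, went the other way by 2.28 ± 0.25 (adjusted p = 1.22e-05), with FBW detected on 2 days.

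The BMP pathway itself changed in both directions. The BMP4 transcript was 7.05, 6.98, 6.89 and 5.24 in FBW and 6.50, 6.51, 6.33 and 6.33 in FW. FW was the lower arm on days 4 to 6 and the higher one on day 8, and the difference of -0.12 ± 0.27 did not pass (adjusted p = 0.715). BMP2, a related ligand, was 6.86, 8.23, 8.92 and 10.04 in FBW against 5.11, 5.47, 5.84 and 5.63 in FW, a difference of -3.00 ± 0.42 (adjusted p = 8.09e-05). BMP5, a ligand of the forming heart, was undetected in FW and at least 51.1-fold lower (adjusted p = 2.25e-07). Of the 18 tested ligands, receptors and antagonists, 8 were lower and 2 were higher.

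Among the antagonists, BMPER, a secreted protein that binds BMPs, was 11.19, 10.18, 10.04 and 10.05 in FBW and undetected in FW. It was at least 38.7-fold lower (adjusted p = 1.28e-07). GREM1, gremlin, was detected in FW on 3 days and in FBW on 0, and was at least 2.09-fold higher (adjusted p = 0.00392).

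Among genes that respond to BMP, 10 of 19 tested were lower and 6 higher, the latter share near that over all tested genes. ID1, an inhibitor of bHLH factors, was 10.62, 10.75, 10.72 and 10.59 in FBW and 12.30, 12.10, 11.82 and 11.98 in FW. FW thus lay above FBW throughout, by 1.38 ± 0.11 (adjusted p = 1.79e-06). The inhibitory SMAD gene SMAD6 and the ID1 relative ID3, chosen after their values were seen, went the other way, by -2.48 ± 0.18 (adjusted p = 7e-07) and -1.21 ± 0.16 (adjusted p = 4.96e-05). DLX3, DLX5 and MSX2, homeobox factors of ectoderm borders and limb, were higher in FW. DLX3 was at least 6.83-fold higher (adjusted p = 7.21e-06). MSX2 was the lower arm on day 4 and the higher from day 5, with a mean of 1.31 ± 0.40 (adjusted p = 0.0139). The MSX2 call was lost without day 5 (1.24), day 6 (0.83) or day 8 (1.23), at adjusted p between 0.0699 and 0.118, without the day block (adjusted p = 0.0601) and with only the 2 arms in the fit (adjusted p = 0.0927).

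WNT pathway genes were lower in 11 of 24 tested (33 with a probe) and higher in 7. LEF1, a nuclear partner of beta-catenin, was 10.08, 9.55, 10.25 and 9.24 in FBW and 4.46, 5.63, 7.20 and 6.94 in FW. The gap of LEF1 narrowed from day 4 to day 8 without closing, and averaged -3.72 ± 0.44 (adjusted p = 2.68e-05), with FW detected on 3 days. RSPO3, a secreted WNT enhancer, differed by -5.10 ± 0.57 (adjusted p = 1.69e-05) with FW detected on 2 days, and the WNT antagonist SFRP5 was at least 13.9-fold lower. SFRP2, another secreted WNT antagonist, was higher by 3.85 ± 0.35 (adjusted p = 3.83e-06), with FBW detected on 1 day. AXIN2, a general target of beta-catenin, did not pass, with -0.27 ± 0.15 (adjusted p = 0.135).

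In the FGF and ERK list, with 25 probed genes, 6 of 18 tested genes were higher and 4 lower, shares near those over all genes. FGF2, the ligand supplied to both arms, was transcribed at 6.51, 5.96, 5.91 and 5.20 in FBW and 9.28, 8.68, 7.92 and 7.27 in FW. The FW level started at that of day 0, 9.31, and declined. The difference was 2.39 ± 0.13 (adjusted p = 6.75e-08), and a second probe of FGF2 gave 1.22. DUSP6, a phosphatase induced by ERK, was lower, at -2.52 ± 0.50 (adjusted p = 0.00104), as was the ERK target ETV5, at -1.77 ± 0.28 (adjusted p = 0.000204). NODAL itself was undetected in FW and at least 3.21-fold lower (adjusted p = 0.000172). TGFB2, a ligand of cushion formation, was at least 10.1-fold lower (adjusted p = 9.8e-06), and of 12 tested Nodal pathway genes 6 were lower and 1 was higher.

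Pluripotency genes were mostly higher in FW. Of 19 tested members, from 26 with a probe, 15 were higher and 1 was lower, with 7 beyond 4-fold and a median of 1.27. POU5F1, which encodes OCT4, was 11.50 on day 0. It then gave 7.43, 5.40, 4.74 and 4.55 in FBW and 10.28, 9.51, 8.41 and 7.80 in FW. Both arms declined, FW from a higher start, and the difference was 3.47 ± 0.29 (adjusted p = 1.91e-06), with FBW detected on 2 days. PRDM14, a repressor of lineage genes, was 9.06, 9.13, 6.95 and 5.17 in FW and undetected in FBW, at least 6.00-fold higher (adjusted p = 0.000231). ZFP42 (REX1) was 9.41 to 10.02 in FW and 5.39 to 7.11 in FBW, with 3.46 ± 0.18 (adjusted p = 4.61e-08). NANOG was detected in FW on 2 days and in FBW on 0, too few for the test. It was 8.23, 6.47, 4.95 and 4.79 in FW, near background on days 6 and 8, and 4.29 to 4.57 in FBW.

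In the list of epithelial junctions and the mesenchymal switch, 11 of 21 tested genes were higher and 7 lower, from 28 with a probe. CDH1, E-cadherin, was 7.91, 7.67, 7.63 and 8.75 in FBW and 11.45, 11.49, 11.94 and 12.12 in FW. The FW level was close to the 11.52 of day 0 and above FBW on each day, by 3.76 ± 0.17 (adjusted p = 1.74e-08). The tight junction claudins CLDN7 and CLDN10 were higher by 3.67 ± 0.17 (adjusted p = 1.97e-08) and 4.38 ± 0.51 (adjusted p = 2.19e-05), and the polarity gene CRB3 by 3.54 ± 0.16 (adjusted p = 1.74e-08). Other detected probes of CRB3 gave 0.83 and 2.22. EPCAM, an epithelial adhesion molecule, was 10.70 to 10.94 in FBW and 12.65 to 12.92 in FW. CDH2, N-cadherin, and VIM, vimentin, were lower, at -1.84 ± 0.21 (adjusted p = 2.1e-05) and -2.61 ± 0.38 (adjusted p = 0.000111).

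Transcripts of surface ectoderm, amnion and trophoblast were also higher in FW, and DLX5, TFAP2A and GRHL3 among them were gained after day 0. Of 21 tested genes, from 28 with a probe, 13 were higher and 1 was lower, with 9 beyond 4-fold. Their summed linear signal was 7390 to 52525 in FW and 16829 to 21840 in FBW, and 3 were detected in neither arm. DLX5, a homeobox factor of the neural plate border, was 9.79, 11.07, 10.75 and 9.80 in FW and undetected in FBW and on day 0. It was at least 41.1-fold higher (adjusted p = 2.65e-06). TFAP2A, the AP-2 factor whose promoter is shown above, was 10.72, 11.69, 11.64 and 11.83 in FW and 6.25, 6.10, 6.01 and 7.90 in FBW. Both arms stood above the 5.05 of day 0, FW by far more, and the difference was 4.90 ± 0.29 (adjusted p = 1.28e-07). The 3 other detected probes of TFAP2A gave 1.28 to 3.99.

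TFAP2C, a relative of TFAP2A, was higher by 4.49 ± 0.23 (adjusted p = 4.91e-08), with FBW detected on 2 days. GRHL3, a grainyhead factor of the surface epithelium, was at least 12.1-fold higher by its brightest probe (adjusted p = 7.36e-07). The 2 other detected probes of GRHL3 gave smaller positive differences, both under 4-fold, the lower of them 1.14. The list median went from -0.11 on day 4 to 1.77, 2.04 and 2.27. VTCN1 and GABRP, amnion-enriched in human cultures and chosen after their values were seen, reached 11.59 and 11.95 in FW on day 8, against 8.52 and 8.64 in FBW. Their other days are not shown, and no test is quoted for them. KRT5, a keratin of stratified epidermis, was detected in neither arm.

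Of 19 tested anterior neural genes, from 29 with a probe, 12 were higher and 5 lower, with a median of 1.26. Their summed linear signal was 7285 to 16571 in FW and 11133 to 17246 in FBW, and 8 were detected in neither arm. SOX21, a SOX2 relative of neural progenitors, was 11.00, 11.42, 9.35 and 8.16 in FW and 5.15, 4.45, 4.51 and 4.46 in FBW, a difference of 5.34 ± 0.54 (adjusted p = 8.12e-06), with FBW detected on 1 day. ZIC2, a zinc-finger factor of neural plate and pluripotent cells, differed by 4.53 ± 0.53 (adjusted p = 2.18e-05), with FBW detected on 2 days. The forebrain factor SIX3 was 7.97, 9.02, 7.61 and 5.85 in FW and undetected in FBW, at least 6.15-fold higher (adjusted p = 0.00381). OTX2 was higher by 1.92 ± 0.31 (adjusted p = 0.000251). LHX2, a LIM factor of forebrain and eye, went the other way by -3.08 ± 0.54 (adjusted p = 0.000442). The defining neural plate markers PAX6 and SOX1 were detected in neither arm on any day, at 4.25 to 4.43 and 4.15 to 4.35. What part cells of these ectodermal types have in the other lists was not tested.

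The neural crest markers gave no common picture. PAX3 was detected in neither arm, SOX10 on 1 day of each and FOXD3 on day 4 of FW. TUBB3, neuronal tubulin that pluripotent cells also hold at 10.76 on day 0, was higher by 3.72 ± 0.25 (adjusted p = 2.93e-07). Presomitic markers TBX6, MSGN1 and MEOX1 and skeletal muscle markers MYOD1 and MYOG were detected in neither arm. The endoderm factor FOXA2 was lower, at -3.17 ± 0.42 (adjusted p = 5.72e-05) with FW detected on 1 day, while the yolk sac and liver product AFP was higher by 2.74 ± 0.49 (adjusted p = 0.000504), with FBW detected on 2 days.

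Of 9 tested genes of the retinoic acid list, from 15 with a probe, 2 were higher, 2 were lower and 5 did not pass. The list median was -0.12, and neither share was above that over all tested genes. CYP26A1, which degrades retinoic acid, was 12.97, 12.74, 12.14 and 10.63 in FW and 8.48, 6.40, 5.25 and 5.47 in FBW. FW was above FBW and above day 0 on each day, and the difference was 5.72 ± 0.45 (adjusted p = 1.22e-06). DHRS3, which lowers retinoic acid by reducing retinal, was higher by 2.01 ± 0.23 (adjusted p = 1.87e-05). ALDH1A2, the synthesising enzyme, did not pass (adjusted p = 0.939). The receptor gene RARA was lower, at -1.17 ± 0.18 (adjusted p = 0.000159).

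Genes of DNA replication and mitosis separated over time. Of 30 tested members 24 were higher in FW and 1 was lower, and the median went from 0.17 on day 4 through 0.45 and 1.23 to 2.15 on day 8. TOP2A, a topoisomerase of dividing cells, was 11.55, 11.19, 10.25 and 8.70 in FBW and 11.17, 11.31, 11.18 and 11.14 in FW. FW was flat and FBW declined, so the arms were level on day 4 and apart on day 8. The TOP2A mean of 0.78 ± 0.38 did not pass (adjusted p = 0.0972), and its change per day of 0.72 ± 0.08 did (adjusted p = 0.000339). RRM2, a subunit of ribonucleotide reductase, and MCM5, of the replicative helicase, were higher by 1.66 ± 0.22 (adjusted p = 6.35e-05) and 1.63 ± 0.18 (adjusted p = 1.54e-05). CDKN1A, which halts the cell cycle, increased in FBW to 10.20 on day 8 against 8.30 in FW.

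Glycolysis and hypoxia genes were lower in FW in 24 of 27 tested and higher in 0, with a median of -1.50. LDHA, lactate dehydrogenase A, was 12.79, 13.79, 13.83 and 14.05 in FBW and 11.43, 11.37, 10.93 and 10.65 in FW. Day 0 was at 13.71, which FBW met from day 5 on while FW stayed below it, and the difference was -2.52 ± 0.35 (adjusted p = 8.69e-05). BNIP3, a mitophagy receptor induced by hypoxia, differed by -3.43 ± 0.38 (adjusted p = 1.42e-05). P4HA1, a collagen prolyl hydroxylase, and PFKFB4, a glycolytic regulator, differed by -3.18 ± 0.35 (adjusted p = 1.37e-05) and -3.03 ± 0.46 (adjusted p = 0.000157). ADM, adrenomedullin, which hypoxia also induces, was 12.80, 10.51, 9.33 and 9.13 in FW and 8.11, 7.99, 8.63 and 10.54 in FBW, so its order turned between day 6 and day 8. The ADM mean of 1.62 ± 0.72 did not pass (adjusted p = 0.0712).

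Cholesterol synthesis genes mostly did not pass, with 1 higher, 2 lower and 11 not past the threshold among 14 tested. SC5D, a late enzyme of that pathway, was the exception in size, at -2.81 ± 0.32 (adjusted p = 2.02e-05). Among p53 and stress genes 10 of 19 were higher and 4 lower. PMAIP1 (NOXA), which promotes cell death, was 10.26, 8.80, 7.78 and 7.77 in FW against 5.88, 4.89, 4.53 and 4.51 in FBW, near the 10.81 of day 0 at first. Its difference was 3.70 ± 0.32 (adjusted p = 2.36e-06), with FBW detected on 1 day, and a second probe of it gave 2.23. Of the p53 targets, CDKN1A did not pass, with -0.43 ± 0.33 (adjusted p = 0.275), and MDM2, detected on 1 FW day and on 0 FBW days, was not tested.

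**Figure D3:**
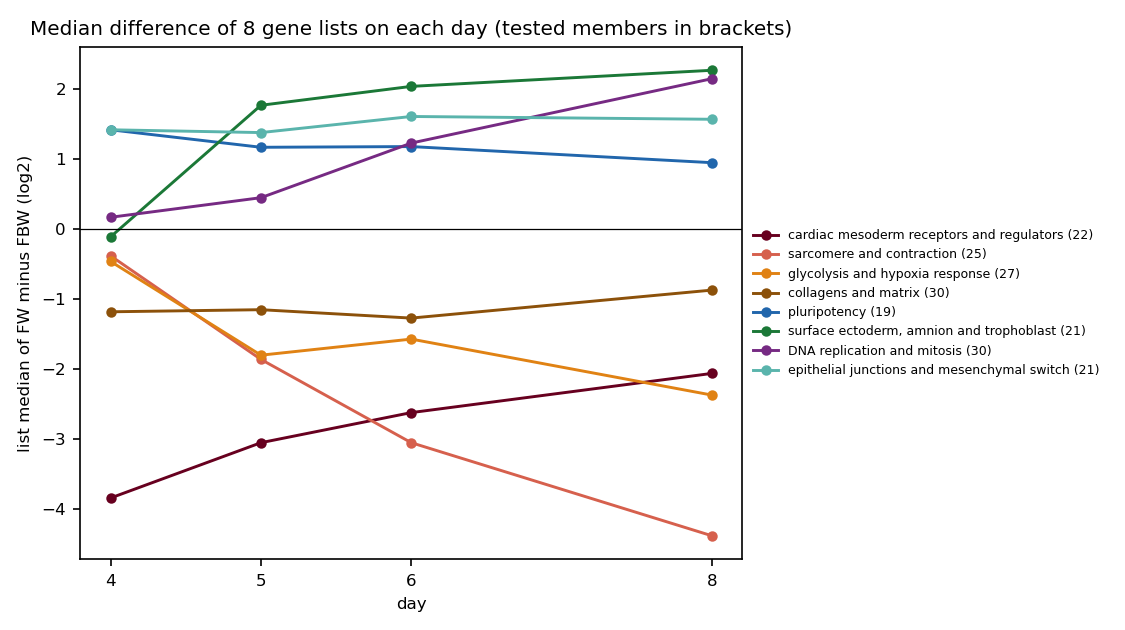
Median FW minus FBW difference (log2, vertical axis) over the tested members of 8 gene lists on days 4, 5, 6 and 8. The sarcomere median falls from -0.38 to -4.38, the cardiac mesoderm median moves from -3.84 to -2.06, and the surface ectoderm and replication medians rise.

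The second test asked where the difference between the arms changed steadily from day 4 to day 8. At an adjusted p under 0.05 the slope was above 0 in 1049 tested genes (9.18%) and below 0 in 1033 (9.04%), 2082 in all (18.2%). In 1199 of them the sign on day 8 was not that on day 4. Among the genes with a rising slope, 374 were at least 2-fold lower in FW on day 4 and 480 were at least 2-fold higher on day 8. The count depended on the days and arms used: it was 887 without day 4, 1318 without day 5, 995 without day 8 and 808 with only these 2 arms in the fit.

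The 6 genes with the largest rising slope were lower in FW on day 4 and near or above FBW by day 8. The imprinted RNA H19 was 5.39, 7.89, 10.49 and 11.96 in FW and 12.93, 12.27, 12.87 and 11.16 in FBW. Its order thus turned on day 8, and the slope was 2.02 ± 0.19 per day (adjusted p = 0.000275). SNAI2, a factor of mesenchymal transition, rose from 4.31 to 7.89 in FW while FBW went from 9.97 to 7.12, with a slope of 1.64 ± 0.21 (adjusted p = 0.000777). HOXB2, a HOX gene of the hindbrain, went from 4.24 to 8.46 in FW and from 10.82 to 8.72 in FBW, with a slope of 1.58 ± 0.17 (adjusted p = 0.000366). LCP1, an actin bundling protein, SVEP1, an extracellular matrix protein, and RHOU, a small GTPase, had slopes of 1.67 ± 0.16, 1.62 ± 0.13 and 1.57 ± 0.31.

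The 6 genes with the largest falling slope were all at least 2-fold lower in FW on day 8. SORBS2, a Z-disc adaptor, was 5.71, 7.72, 9.06 and 11.03 in FBW and 6.44, 6.66, 5.21 and 4.61 in FW. The arms crossed between day 4 and day 5, and the slope was -1.82 ± 0.25 per day (adjusted p = 0.00108). EEF1A2, the muscle and neuron form of an elongation factor, had -1.69 ± 0.24 (adjusted p = 0.00127). CKM, TNNC1 and MYL3, a ventricular and slow muscle light chain, had -1.65 ± 0.32, -1.56 ± 0.23 and -1.58 ± 0.22. VCAM1, an adhesion molecule of early cardiomyocytes, went from 5.20 to 12.21 in FBW and had -1.67 ± 0.29 (adjusted p = 0.00315).

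**Figure D4:**
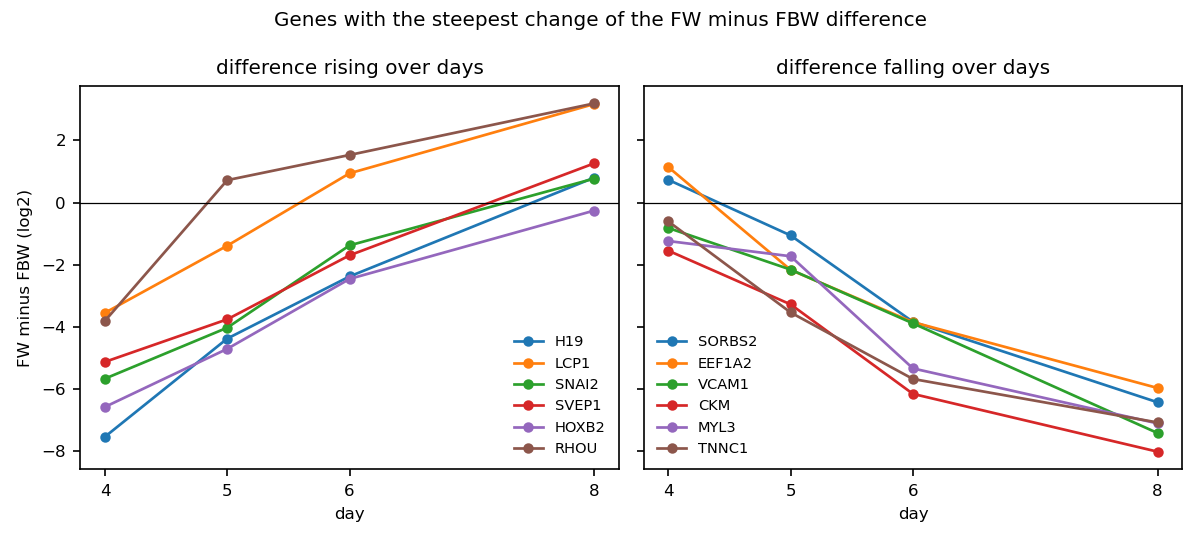
FW minus FBW difference (log2, vertical axis) on days 4, 5, 6 and 8 for the 6 genes named for the largest rising slope (left) and the 6 for the largest falling slope (right). On the left H19, LCP1, SNAI2, SVEP1 and RHOU cross 0 by day 8, and on the right all 6 lie below -5 on day 8.

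The third test set the difference on days 4 to 8 against that on days 1 to 3. Of 12040 tested genes 863 were higher (7.17%) and 920 lower (7.64%) at an adjusted p under 0.05. Of these 1783 genes (14.8%), 1645 also passed in the late comparison. Different settings moved this count from 64, with only these 2 arms in the fit, to 2919, with array weights. It was 1974 without day 3, 429 without day 2, 577 without day 6, 905 without day 5, 989 without day 1, 1157 without day 8 and 461 without the day block, so single genes are read as values here. TFAP2A was 9.16, 7.05 and 5.29 in FBW on days 1 to 3 and 4.59, 5.52 and 7.94 in FW. FBW was the higher arm on days 1 and 2 and the lower one from day 3, a change of 6.06 ± 1.06 (adjusted p = 0.00182).

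HAND1 was 6.40, 12.12 and 13.70 in FBW on days 1 to 3 against 4.23, 4.56 and 5.18 in FW. The FW arm reached the FBW level days later, a change of 4.87 ± 1.31 (adjusted p = 0.0199). TBX2 and BMP5 were near background in both arms on days 1 and 2, and changed by -5.44 ± 0.43 (adjusted p = 1.74e-06) and -5.49 ± 0.56 (adjusted p = 2.74e-05). SLC30A3, a zinc transporter, changed by -6.01 ± 0.77 (adjusted p = 0.00023). The neuropeptide gene NTS was higher in FBW on days 1 to 3 and higher in FW from day 4, a change of 4.66 ± 0.84 (adjusted p = 0.00214).

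FW was also set against the FB arm, which received BMP4 and FGF2 and lacked the WNT activator. Between FW and FB 1 of 10900 tested genes passed (0.00917%), with 725 at an unadjusted p under 0.05. The small structured RNA gene SNAR-A1, whose near-identical copies the probe may share, was 12.37, 12.55, 11.99 and 11.15 in FW and 11.45, 11.17, 11.29 and 10.51 in FB, a difference of 0.91 ± 0.12 (adjusted p = 0.0453). The count was 0 under several other settings, 185 with only these 2 arms in the fit and 95 with array weights. In the main fit the spread came from all 4 arms, FBW and BW included, and not from FW and FB alone. For 10377 genes (95.2%) the 95% interval of the difference lay within 2-fold either way, and 12 genes differed by more than 2-fold.

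MYH6 had the largest of these differences. It was 5.60, 9.59, 8.45 and 7.19 in FB against 5.77, 5.94, 5.83 and 5.29 in FW. FB was the higher arm from day 5 on, yet the difference of -2.00 ± 1.06 did not pass (adjusted p = 0.819), and its interval ran from -4.29 to 0.29. MYL4 and MYL7 differed in the same direction, by -1.33 ± 0.60 and -1.15 ± 0.69, neither of them past the threshold. SOX2, DLX5 and PDGFRA differed by 0.10 ± 0.33, -0.02 ± 0.49 and -0.20 ± 0.25. The standard deviation over genes of FW minus FB was 0.25 to 0.28 on the 4 days, against 0.99 to 1.09 for FW minus FBW.

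**Figure D5:**
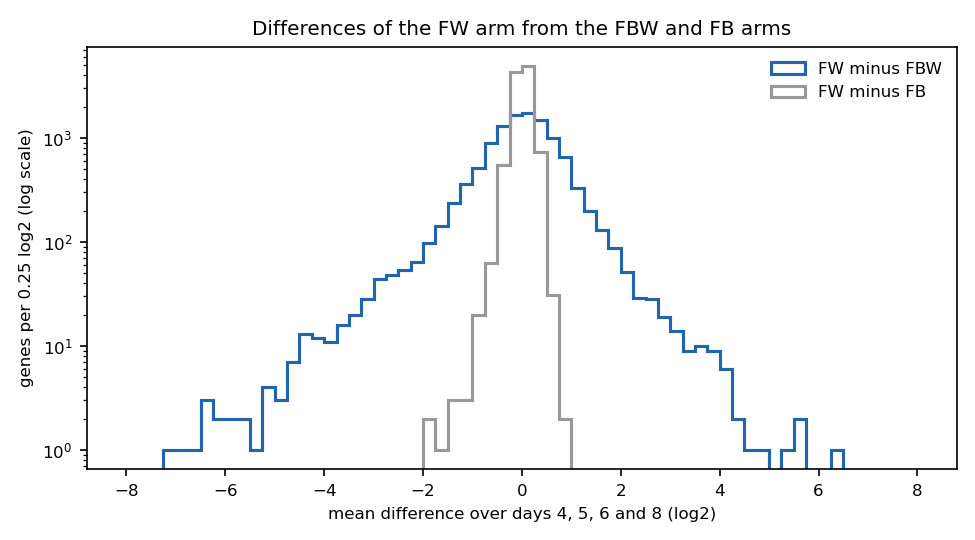
Number of genes (log scale, vertical axis) by mean log2 difference over days 4, 5, 6 and 8, for FW minus FBW (11426 genes, blue) and for FW minus FB (10644 of them, grey). The grey outline spans -2.00 to under 1, and the blue outline spans -7.07 to 6.25.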

How the data were processed

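Members and gene lists were chosen with earlier results of these data known. RNA from 29 cultures was hybridised to Illumina bead arrays. In the deposited raw table an intensity on a linear scale stands for each probe, with a deposited detection p-value beside it. GenomeStudio is the tool that the submitters' processing notes name, without a version. The authors' processed table, also an intensity, had values down to -13.02. How it was made is not given in the sources used, and it served as an alternative.

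The neqc function of limma 3.58.1 (R 4.3.3) corrected the deposited intensities for background, added an offset of 16 and normalised them by quantiles, which gave log2 values. Genes were named from the platform annotation, by the probe with the highest mean over 29 arrays, so levels are not compared between genes. Tests used limma (lmFit, eBayes with a trend) over all 4 arms with day as a block, on 16 arrays with 9 residual degrees of freedom, and Benjamini-Hochberg adjustment over all tested genes at 0.05. The blocks pair arrays by the day the labels give. The slope test used the same arrays, and the late against early test 28. The methods were tested on simulated data. Named genes were the 12 largest differences each way among genes past the threshold, the same sign on 4 days and detected on all 4 arrays of the brighter arm, the first 2 and up to 3 further genes of each list by size, up to 6 genes each way for the slope and for late against early, and genes of FW against FB. Genes with LOC symbols, and XIST and Y-linked genes, were left out. Markers of each cell type are named too. Alternatives were the normalisation, the authors' values, the offset, the detection filter, the arms in the fit, the block, array weights, the trend, the probe rule and each day left out. Promoters came from RefSeq. PGA3 and PGA5, near-identical pepsinogen genes among the 12 lowest, were not described.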

Additional observations from a re-analysis of the deposited data

Results flagged for a closer look

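For 9 of the 134 genes followed, the FW minus FBW difference of 1 day stood apart from the other 3, by Dixon's criterion for 4 values. For 4 independent repeats chance would give about 1 such gene in 20. The 4 values here are successive days, so that rate need not apply. The outlying day was day 4 for MYH6 (-3.38), NKX2-5 (-1.42), MEF2C (-2.56), CD34, an endothelial and blood progenitor marker (-0.46), TAGLN (3.74), SPRY1, an FGF antagonist (0.60), and ETV5 (-0.70). It was day 8 for BMP4 (1.08) and day 5 for the metallothionein MT1G (3.71). TAGLN had a smaller and SPRY1 a negative difference on the later days, and BMP4 a negative one on days 4 to 6.

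For the late against early test 12 genes were named, as the largest changes among genes past the threshold of the limma interaction term. That they passed was thus set by the choice. The count of that test moved widely between settings, so their changes are read as values. The change was positive for CYP26A1 (5.73), DLX5 (5.35), TFAP2A (6.06), ZIC2 (5.05), NTS (4.66) and HAND1 (4.87). It was negative for MYH6 (-6.95), MYL4 (-5.75), BMP5 (-5.49), TBX2 (-5.44), SMYD1 (-5.20) and SLC30A3 (-6.01).

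Among the arrays themselves, the raw median of FW on day 6 was 103.8 and that of FBW on day 8 was 94.8, each apart from the other 3 arrays of its arm. The raw 95th percentile of FBW on day 8 was 883. Quantile normalisation sets such levels equal.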

How the results depend on the processing

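The count of genes differing between FW and FBW on days 4 to 8 stayed within 1.5 times of 6738 under all alternatives run. It was 5835 with no replicate block, so without pairing by day, 4932 with only the 2 arms in the fit, and 5222 to 6377 with 1 day left out. The slope count of 2082 was 808 with only the 2 arms and 887 to 1651 with 1 day left out. The late minus early count of 1783 was 64 with only the 2 arms, 461 with no replicate block and 2919 with array weights, and 429 to 2493 with 1 day left out. For FW against FB the count of 1 was 0 with quantile normalisation alone, with an offset of 50, with no detection filter, with no replicate block, without the eBayes trend, with the mean of all probes and with each day left out (0 to 0), and 185 with only the 2 arms and 95 with array weights. The cause of these moves was not tested.

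Of 134 genes followed, 115 kept direction and side of the threshold under all alternatives run. Of 125 called, 11 lost the call somewhere, and 5 uncalled genes gained it. NPPB, BMP4, ALDH1A2 and CDKN1A, which had not passed, changed sign somewhere. With 1 day left out, NPPB ran from -0.67 to 0.56, BMP4 from -0.52 to 0.02, ALDH1A2 from -0.49 to 0.68 and CDKN1A from -0.77 to 0.06. NPPB was 0.00 with quantile normalisation alone, and ALDH1A2 was 0.48 with array weights.

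Dim signals near background have little room to differ, and 1 array per arm and day leaves the spread between differentiations unmeasured.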

Other observations

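Several secreted and neuronal products also differed between the arms. NPY, neuropeptide Y, was 10.86, 11.77, 10.81 and 10.29 in FBW and 5.34, 5.37, 6.91 and 7.07 in FW, a difference of -4.76 ± 0.56 (adjusted p = 2.38e-05). The semaphorin and VEGF co-receptor NRP1 was 9.23, 9.04, 9.55 and 9.09 in FBW and rose in FW from 4.29 to 7.50, with -3.80 ± 0.44 (adjusted p = 2.22e-05) and FW detected on 2 days. A second probe of NRP1 gave -2.10. Both genes were lower in FW on all 4 days. The granin SCG3 was higher by 2.61 ± 0.14 (adjusted p = 5.5e-08) and the neuropeptide GAL, with FBW detected on 2 days, by 2.13 ± 0.34 (adjusted p = 0.000223). Over the axon guidance and neuronal signalling list 7 of 21 tested genes were higher and 8 lower, shares near those of all genes.

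IGF axis genes did not move one way either, with 4 of 17 tested higher and 5 lower. IGFBP4, which binds IGFs, was lower, at -2.36 ± 0.21 (adjusted p = 2.62e-06). IGFBP5 was 5.62, 11.00, 12.89 and 13.21 in FW and 7.70, 6.55, 8.88 and 10.89 in FBW. FW was lower on day 4 and higher afterwards, and the mean of 2.18 ± 1.05 did not pass (adjusted p = 0.0911). Without day 4 it was 3.59 and passed (adjusted p = 0.000609). KIF1A, a neuronal kinesin among the 12 largest positive differences, was higher by 4.16 ± 0.42 (adjusted p = 8.01e-06).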
